A study of Oryctolagus cuniculus with 6 samples.

Results

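Overlapping first exons were compared in skin RNA of 30-day-old rabbits (Oryctolagus cuniculus), in 3 libraries labelled Prss53-/- and 3 labelled wild type. The treatment label names CRISPR/Cas9 for all 6 libraries, and no further detail of the allele or of any treatment of the wild type is given in the labels. Each library has 1 table of transcript events, in which a first exon is a region with a start, an end, a strand and a level in FPKM, a fragment count scaled to transcript length and library size. Of 21924 first exons in all, 11776 lay in 4287 loci that listed 2 or more, and 3548 of these overlapped at least 1 other first exon of the same locus by 1 base or more. These 3548 are the regions described here. They form 2520 overlapping pairs and 1556 clusters in 1500 loci, and 8228 first exons of the same kind of locus overlap no other.

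A first exon has an outer boundary, where transcription starts, and an inner boundary, the donor site from which the first intron is spliced out. Promoters often start transcription over a stretch of bases rather than at a point, so that transcripts of 1 promoter can differ at the outer boundary alone. A changed inner boundary means that another donor site was used, or that the first exon reads on into sequence that other transcripts splice out. Either can alter the 5' untranslated region or the start of the coding sequence without a change of promoter.

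The authors' tables define each first exon by its inner boundary. For all 21924 first exons the event pattern repeats the inner boundary, and 0 first exons of a locus share it with another. Overlapping first exons that differ at the outer boundary alone are therefore not represented, and the split by boundary leaves 2 kinds of pair. In 1277 pairs the outer boundary was identical and the inner boundary differed, and in 1243 pairs both differed. By their partners, 1682 first exons had pairs of the first kind alone, 1491 of the second kind alone, and 375 had both. Among the 1243 pairs with different outer boundaries the median offset was 45 bases, and in 276 it was 10 bases or less, so that the line between the 2 kinds rests on small offsets in part of the pairs. Outer ends were taken as deposited, and no tolerance was applied.

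Most clusters were simple, 1246 of them with 2 first exons, 224 with 3, 62 with 4 and 24 with 5 or more, up to 7. The inner boundaries of a pair lay between 2 and 11922 bases apart, with a median of 348 bases. The form whose inner boundary lies farther downstream, called the long form below, had a median length of 790 bases, and the other form, the short form, of 309 bases. The distance was a multiple of 3 in 831 of the 2520 pairs. The long form started upstream of the short form in 590 pairs and downstream of it in 653. In 1 of the 2520 pairs the long form was also listed as a retained intron.

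Short distances had a clear mode. At 4 bases there were 49 pairs in 49 loci, 24 with the same outer boundary and 25 with a different one, and at 5 bases there were 23 pairs. From 6 to 40 bases each distance held between 2 and 14 pairs, with a median of 7, and at 2 and at 3 bases there were 4 each. Donor sites a few bases apart, from which the splicing machinery can choose either, are a known form of alternative splicing, and a spacing of 4 bases is its best known case.

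**Figure D1:**
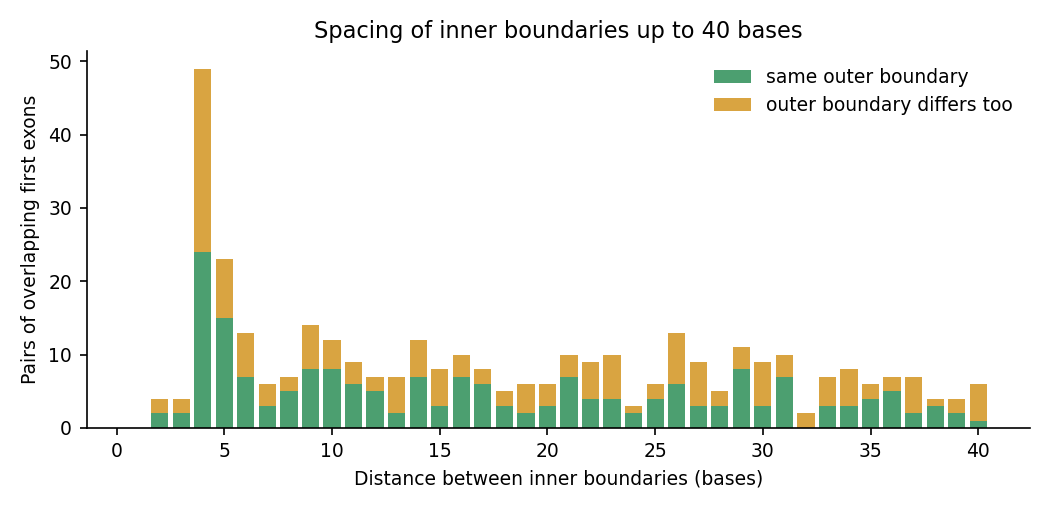
Number of overlapping first-exon pairs (vertical axis) at each distance between their inner boundaries from 1 to 40 bases (horizontal axis), stacked by whether the outer boundary is the same or also differs. The bar at 4 bases stands at 49 pairs and the bar at 5 bases at 23, while those from 6 to 40 bases reach at most 14.

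In 5 of the pairs 4 bases apart both forms were listed in every library, and these 5 are given because they have no missing value. On chromosome 20 the first exons from 31891716 and from 31891720, both ending at 31892112 on the minus strand, gave the long form 87.7%, 92.8% and 90.9% of the pair's FPKM in the knockouts and 90.9%, 86.7% and 86.5% in wild type. On an unplaced scaffold the minus-strand first exons from 1557538 and from 1557542 to 1557669 gave it 81.2%, 82.5% and 78.1% in the knockouts and 83.9%, 76.8% and 89.3% in wild type. In both loci the form with the donor 4 bases farther downstream was the main one in all 6 libraries, and the genotypes overlapped. On chromosome 13 the minus-strand pair ending at 121980608 was nearly even, with 40.6%, 34.8% and 43.1% in the knockouts and 60.2%, 33.6% and 58.7% in wild type. The other two pairs, on unplaced scaffolds, had means of 53.6% and 78.3% for the long form, at 1.75 to 5.40 FPKM and 1.71 to 10.8 FPKM for both forms summed.

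Over the 1294 pairs whose 2 forms summed to at least 1 FPKM in every library, the long form carried on average 49.5%, 47.8% and 48.6% of the pair's FPKM in the knockouts and 47.1%, 49.0% and 49.3% in wild type. The library means of the genotypes overlap. The mean hides a split between pairs: the long form had under 10% in 340 pairs and over 90% in 332, and lay between in 622. Its use differed between distances, with no steady order. At 11 to 30 bases it was the main form in 53 of 86 pairs, with library means between 57.4% and 61.5%. From 31 to 100 bases it led in 82 of 173 pairs, with means between 47.6% and 51.2%, and above 100 and up to 300 bases in 148 of 262, with means between 54.3% and 56.7%. Above 300 and up to 1000 bases it was the main form in 182 of 448 pairs, with means between 41.4% and 45.5%, and beyond 1000 bases in 106 of 256. At 4 bases neither form prevailed, with the long form ahead in 12 of 24 pairs. Pairs of 1 cluster share first exons, so they are not independent, and no test is given for these means.

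**Figure D2:**
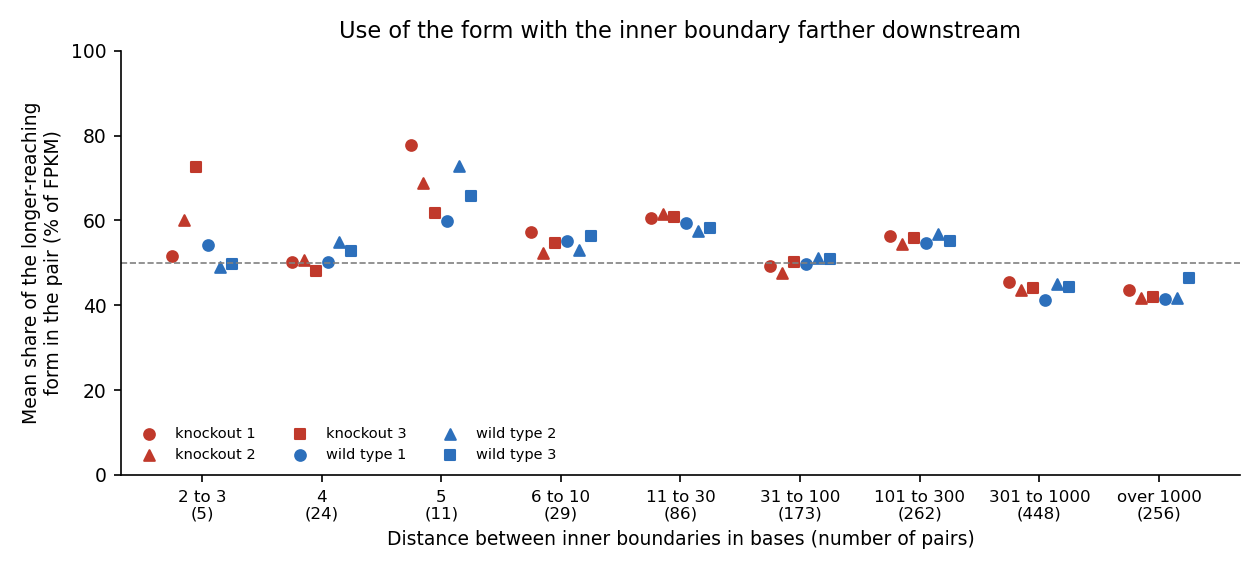
Mean share of the long form in a pair (vertical axis, percent of the pair's FPKM) by the distance between inner boundaries (horizontal axis, with the number of pairs), 1 symbol per library, red for knockout and blue for wild type, and a dashed line at equal use. At 11 to 30 bases the libraries lie between 57.4% and 61.5%, and above 300 and up to 1000 bases between 41.4% and 45.5%. In the bins with under 20 pairs (2 to 3 bases and 5 bases) the libraries scatter widely.

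The levels of individual forms were unsteady between libraries. Of the 3548 first exons, 1225 (34.5%) were listed in all 6 libraries and 948 (26.7%) in a single library. A form missing from a library was taken as 0, although assembly can also miss a transcript that is present. First exons that overlap no other, in loci with 2 or more, were listed in all 6 libraries in 31.6% of cases and in a single library in 37.1%. Each library listed between 2093 and 2198 of the 3548, and these carried between 12.3% and 14.9% of all first-exon FPKM. Across first exons, log2(FPKM + 1) of knockout replicate 3 stood apart, at r = 0.825 and 0.834 with the other knockouts. Those 2 reached 0.880, and wild-type pairs lay between 0.869 and 0.880. For the share of each overlapping first exon the knockout pairs lay between 0.828 and 0.845, the wild-type pairs between 0.836 and 0.852 and pairs across genotypes between 0.805 and 0.833. These are Pearson correlations across regions, which are not independent replicates.

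Some loci kept their split nearly fixed while their level moved. Among clusters with an identical outer boundary and a second form with a mean share of at least 10%, this holds for the most abundant. There, on an unplaced scaffold, plus strand, 2 first exons start at 95925 and end at 96134 or, 18 bases shorter, at 96116. In knockout the longer one had 1904, 3033 and 1956 FPKM, against 2400.0, 3538 and 2106 in wild type, and its share of the locus was 88.2%, 88.6% and 88.5% in the knockouts and 88.0%, 88.0% and 88.0% in wild type. The share thus stayed between 88.0% and 88.6% while the level ran from 1904 to 3538 FPKM. On chromosome 4 the minus-strand first exon from 11719812 to 11720187 had 27.4, 28.8 and 10.4 FPKM in knockout against 11.5, 10.6 and 9.10 in wild type, yet its share stayed at 89.3%, 87.6%, 88.0%, 90.1%, 87.9% and 88.1%. Its short partner begins at 11720009. On chromosome 2 the first exons from 42058742 to 42058925 and to 42059004 split 75.8%, 74.5% and 75.4% to the shorter in the knockouts and 76.0%, 72.5% and 77.9% in wild type. The chromosome 2 and 4 loci were chosen after their values were seen, for their small range of share. Among the 355 overlapping first exons with a mean share between 10% and 90% in loci of at least 10 FPKM, the median range over the 6 libraries was 29.2 percentage points, 36 kept within 10 points and 72 ranged over 50 points or more.

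Other abundant clusters named by rule, the 3 with the highest FPKM of each kind in which the second form had a mean share of at least 10%, were less steady, except a cluster on chromosome 17. On chromosome 10, minus strand, the first exon from 34533673 to 34534132 reached 4508 and 3507 FPKM in knockout replicates 2 and 3. In wild type, replicates 1 and 3 listed it at 363 and 3097 FPKM. Wild-type replicate 2 listed only the long form from 34531120, at 2322 FPKM, and knockout replicate 1 listed neither. A locus with 6 first exons on chromosome 19, minus strand, held 2 of these clusters. In the first, from 41876995 to 41877536 and from 41877136 to 41877544, knockout levels of the former were 500.3, 698 and 415 FPKM, against 446, 388 and 632 in wild type. The latter was absent from the third library of either genotype, and stood at 1467 and 1364 FPKM in the other knockouts and at 95.6 and 698 FPKM in the other wild types. Its second cluster is described below.

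Also on chromosome 19, in a locus with 25 first exons, 4 overlapping forms begin between 42079904 and 42079911. The form that ends at 42080667 carried 29.9%, 50.7% and 25.5% of the first-exon FPKM in the knockouts and 17.9%, 15.1% and 46.1% in wild type, so the groups overlapped. An unplaced-scaffold cluster of 5 minus-strand forms was led by the one from 164158 to 165065, at 100%, 69.2% and 100% in the knockouts and 82.2%, 66.8% and 87.9% in wild type. Another unplaced-scaffold cluster, with first exons from 6971 to 8589 and from 7373 to 8585, was not listed in wild-type replicate 2. On chromosome 17 the plus-strand first exons from 8084843 to 8084968 and from 8084939 to 8085073 were the only forms of their locus and used about equally, and their shares kept within 9.78 points over the 6 libraries. The second carried 58.3%, 49.3% and 55.0% in the knockouts and 50.4%, 58.0% and 48.5% in wild type (difference 1.85 ± 7.22 percentage points, SE; limma adjusted p = 0.915).

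Whether the genotypes use overlapping first exons differently was tested on the share of each first exon in the summed first-exon FPKM of its locus. Of the 3548, 2643 lay in loci with at least 1 FPKM of first exons in every library. None of them passed (limma with a mean-variance trend, adjusted p below 0.05 over all 8260 first exons tested, 0.0121% of which were called; lowest adjusted p of an overlapping first exon 0.105). At an unadjusted p under 0.05 there were 159 (6.02%), against 5.24% of all first exons tested. The genotypes did not overlap in 272 (10.3%), against 9.24% of all. The median absolute difference was 6.22 percentage points, against 5.81 over all first exons tested, and the median SE was 7.31 points. At 3 libraries per group and with the trend, even large differences missed the threshold: the 14 first exons described below differed by 27.9 to 76.3 points and none passed. They were chosen from these same data by a fit without the trend, so the part of the library number in this was not tested. For the largest difference the SE was 7.98 points with the trend and 3.01 points without it. By kind, 71 of 1334 with an identical outer boundary had an unadjusted p under 0.05, 61 of 1004 with both boundaries different and 27 of 305 with partners of both kinds. Leaving out wild-type replicate 2 gave 2 calls, first exons on chromosome 10 from 44596572 to 44596727 and on chromosome 13 from 39474825 to 39475048, whose loci had under 1 FPKM in that library (adjusted p = 0.0448 for each). Leaving out any other library gave 0.

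To separate a change among overlapping forms from a change between a cluster and the other first exons of its locus, each form was also divided by the FPKM of its own cluster. Of 2219 tested in this way none passed (0%; limma, adjusted p below 0.05). An unadjusted p below 0.05 was found for 136 (6.13%), the groups did not overlap in 227 (10.2%), and the lowest adjusted p was 0.0715. Without wild-type replicate 2 there were 3 calls, the 2 above and the chromosome 10 partner from 44596406 to 44596715 (adjusted p = 0.0449).

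The count depends on how the spread is modelled. With a single prior variance for all first exons in place of the trend, an alternative chosen after seeing the data, 14 overlapping first exons in 11 loci passed (52 of all 8260, 0.63%), 6 with a higher and 8 with a lower share in knockout. Within clusters 6 passed (0.27%): forms described below from 7269456 to 7272279 and from 1191883, 376344 and 376384, and both forms of a cluster not among the 14. Its minus-strand form from 44450 to 44638 on an unplaced scaffold (ENSOCUG00000022517) had 63.9%, 66.5% and 76.6% of the cluster's FPKM in the knockouts. No wild-type library listed it. The form from 44517 to 44650 had the rest (limma adjusted p = 0.0715 for each, and 0.00506 without the trend). The 14 are described as candidates, since none passed in the main test, where their adjusted p lay between 0.105 and 0.222. In all 14 the genotypes did not overlap, against 9.24% of all first exons tested. That largely follows from their choice by a genotype test on these same values. For 8 of the 14, 1 genotype lacked the form in each of its libraries, and 9 lay on unplaced scaffolds. In simulated shares the rate of false calls was above the nominal one both with and without the trend.

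**Figure D3:**
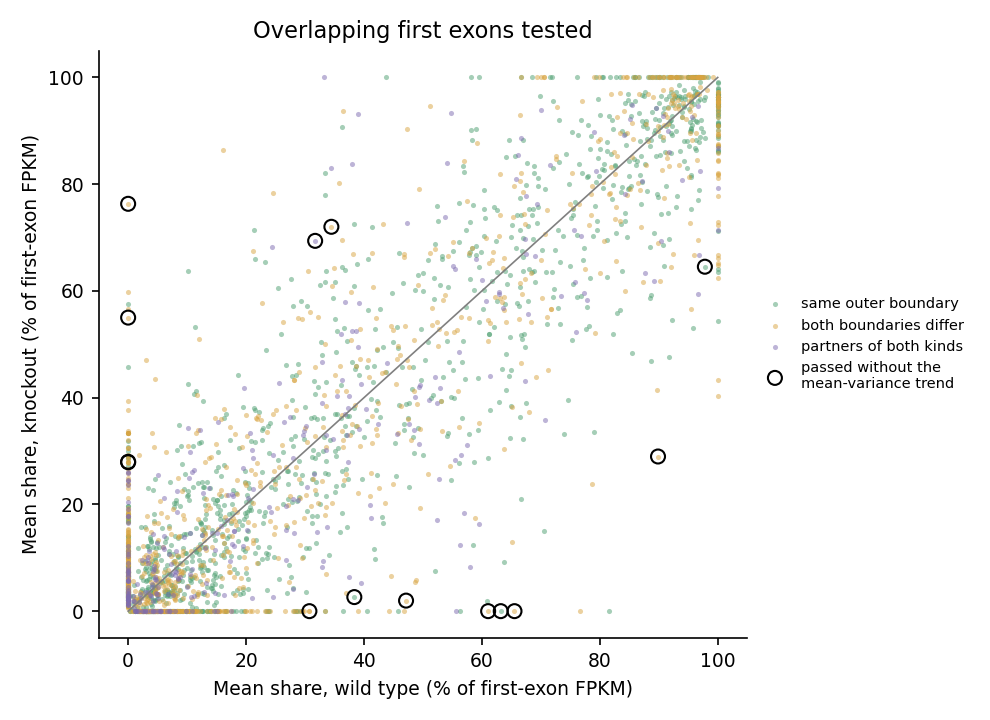
Mean share of the locus's first-exon FPKM in knockout (vertical axis, percent) against wild type (horizontal axis, percent) for the 2643 overlapping first exons tested, coloured by kind of partner, with the line of equality. Open circles mark the 14 that passed without the mean-variance trend, 8 of them on an axis, where 1 genotype did not list the form.

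The largest of these differences was at a plus-strand first exon of 4061 bases, spanning 319360 to 323420 of an unplaced scaffold (ENSOCUG00000000224). Its knockout levels were 7.82, 6.47 and 5.74 FPKM, 79.5%, 75.3% and 74.2% of the locus, and no wild-type library listed it (adjusted p = 0.105, and 0.00263 without the trend). All first exons of the locus summed to 9.84, 8.59 and 7.73 FPKM in knockout and 12.0, 9.02 and 9.97 FPKM in wild type, so its wild-type first-exon FPKM came from other forms. The first exon that overlaps it, from 320852 to 321435, was listed in knockout replicate 2 alone, at 1.29 FPKM. Both forms therefore belonged to knockout libraries, and the contrast was with first exons outside the cluster.

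On another unplaced scaffold the plus-strand first exon from 539719 to 540812 (ENSOCUG00000026384) was at 19.0, 20.0 and 22.2 FPKM in knockout alone. Its share was 55.3%, 64.0% and 45.7% in the knockouts (adjusted p = 0.192, and 0.0287 without the trend). The overlapping long form from 539902 to 542563 carried 4.60% in knockout replicate 2 and 8.85% and 11.5% in wild-type replicates 2 and 3. Here too most of the wild-type FPKM lay outside the cluster.

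In the minus-strand locus from 1191831 to 1192735 on an unplaced scaffold (ENSOCUG00000022451) all 3 first exons overlap, and all 3 passed without the trend. The 153-base form from 1191883 to 1192035 had 19.4, 15.7 and 16.6 FPKM in wild type, 70.6%, 60.1% and 65.9% of the locus, and was not listed in the knockouts. The shares of the 852-base form, from 1191853 to 1192704, were 75.7%, 70.9% and 69.4% in the knockouts and 29.4%, 39.9% and 34.1% in wild type. Only knockouts listed the 905-base form, from 1191831 to 1192735, at 24.3%, 29.1% and 30.6%. The inner boundaries of the 3 forms lie within 52 bases, while the outer boundary of the wild-type form lies 669 and 700 bases downstream of those of the others. Their adjusted p in the main test was 0.146, 0.205 and 0.198.

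The minus-strand locus from 376344 to 376832 on an unplaced scaffold also consists of 3 overlapping first exons, at 100.6 to 246 FPKM in all. The 366-base form from 376344 to 376709 had 72.1, 47.4 and 66.9 FPKM in wild type, 48.8%, 47.1% and 45.5% of the locus, and in the knockouts only replicate 2 listed it, at 9.84 FPKM and 5.92%. The 449-base form from 376384 to 376832 was at 135, 111 and 176 FPKM in knockout against 48.4, 28.6 and 49.9 in wild type, with shares of 69.8%, 66.6% and 71.7% against 32.7%, 28.5% and 33.9%. For the third form, from 376431 to 376832, the shares were 30.2%, 27.4% and 28.3% in the knockouts and 18.5%, 24.4% and 20.5% in wild type. Between the main forms of each genotype the inner boundary differs by 40 bases and the outer boundary by 123 bases. The adjusted p of both was 0.198 in the main test, and 0.0174 and 0.0257 without the trend.

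The second chromosome 19 cluster of the locus with 6 first exons had the highest level of the 14. Its 520-base form from 41859184 to 41859703, minus strand, had 891, 758 and 500 FPKM in wild type, 32.9%, 40.9% and 41.3% of the locus. Knockout replicates 1 and 2 had 137 and 122 FPKM, 4.21% and 3.70%, and replicate 3 did not list it (adjusted p = 0.222, and 0.0310 without the trend). The overlapping form with an inner boundary at 41859218 was listed in knockout replicate 2 and wild-type replicate 1 alone, at 1115 and 940 FPKM.

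On chromosome 12 the plus-strand first exon from 7269456 to 7272279 (ENSOCUG00000007245) had 9.99, 7.89 and 6.44 FPKM in wild type, 74.3%, 63.1% and 52.2% of the locus, and was not listed in the knockouts. The form with the same outer boundary that runs to 7279797 was listed in every library, at 2.20 to 7.25 FPKM, and another that runs to 7273741 had 5.60 and 4.77 FPKM in knockout replicates 2 and 3 and was not listed elsewhere. The minus-strand form from 99871422 to 99871502, on the same chromosome, had 2.92, 2.53 and 4.77 FPKM in wild type and was not listed in the knockouts, of which replicates 1 and 2 listed its overlapping partner from 99871494 to 99871601 at 3.42 and 2.54 FPKM. No wild-type library listed that partner.

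On chromosome 13, plus strand, the first exon from 123931015 to 123931131 carried 29.5%, 26.7% and 27.5% in knockout and was absent from the wild-type tables. There the overlapping form from 123930921 to 123931076 carried 100% in replicates 1 and 2 and the rest beside another overlapping form (1.66 FPKM) in replicate 3. Its knockout shares were 62.6%, 73.3% and 72.5%. On chromosome 11, plus strand, the short first exon from 85438216 to 85438281 carried 69.8%, 59.8% and 64.0% in the knockouts and 93.5%, 100% and 100% in wild type, with 3.72 to 5.87 FPKM in the locus. Its overlapping long form, to 85438638, carried 11.3%, 0% and 36.0% in the knockouts, so in replicate 2 the rest lay outside the cluster. Within the cluster the short form had 86.0%, 100% and 64.0% in the knockouts (limma adjusted p = 0.708, and 0.751 without the trend). The remaining 2 of the 14 are on unplaced scaffolds at low levels. The shares of the form from 1297781 to 1299379 were 25.6%, 37.8% and 23.5% in the knockouts and 81.3%, 88.3% and 100% in wild type, and only wild type listed the form from 254275 to 254695, at 32.0%, 32.5% and 27.7%. Their loci had 1.15 to 6.90 FPKM and 1.22 to 2.20 FPKM.

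**Figure D4:**
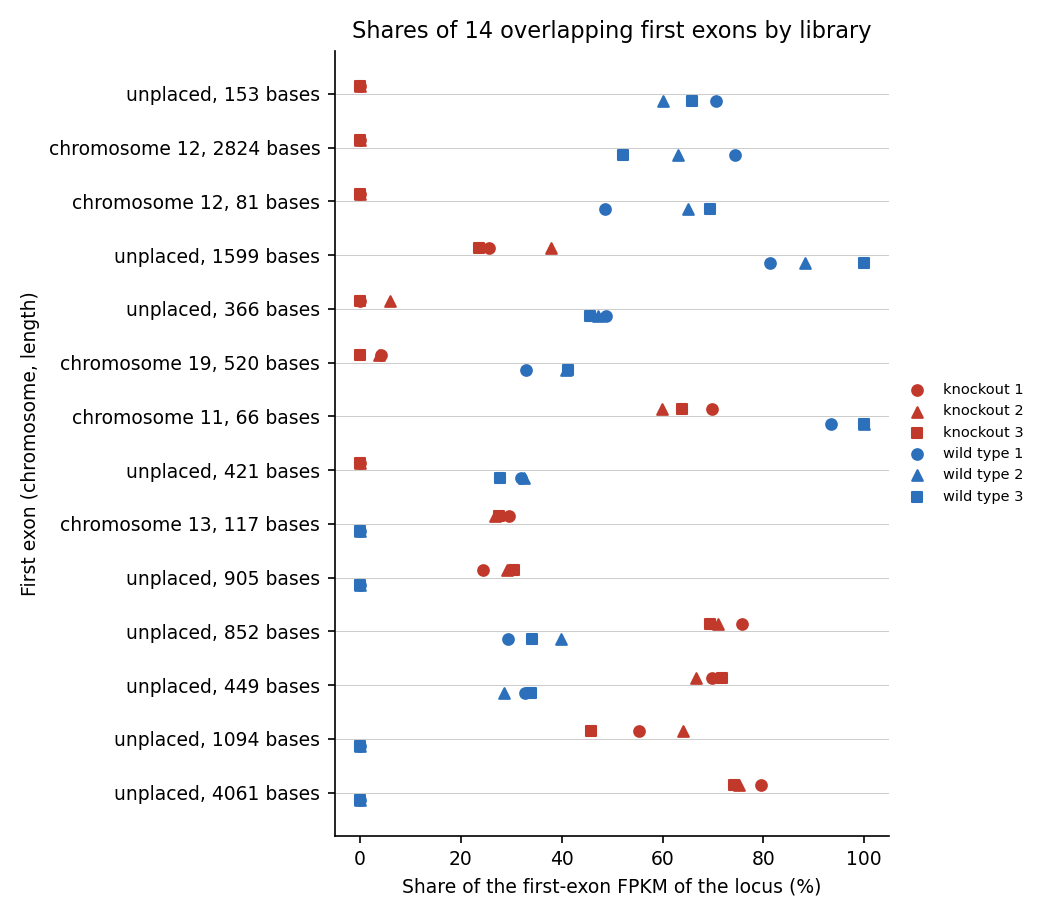
Share of the first-exon FPKM of the locus (horizontal axis, percent) in each library for the 14 first exons that passed without the mean-variance trend, named by chromosome and length, with red symbols for knockout, blue for wild type and a shape for each replicate. In every row the red and blue symbols are apart, and in 8 rows all symbols of 1 genotype lie at 0, where the form was not listed. The rows were chosen by a genotype test on these same values, which favours such separation.

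The level of each first exon was tested separately, as log2(FPKM + 1) with 1 adjustment over all 11142 first exons with at least 1 FPKM in at least 3 libraries. Of 1720 overlapping first exons tested, 41 in 38 loci passed, 18 higher and 23 lower in knockout (limma, adjusted p below 0.05). That is 2.38%, against 1.70% of all first exons tested, of which 0.889% were higher and 0.808% lower. Without the trend 44 passed, against 1.91% of all. The groups did not overlap in 361 of the 1720 (21.0%), against 24.9% of all. By kind, 17 of 916 with an identical outer boundary passed, 19 of 611 with both boundaries different and 5 of 193 with partners of both kinds. The filter bears on these counts, since 31 of the 41 reached 1 FPKM in 1 genotype alone, as 58 of the 1720 tested did, and such forms could be tested only if they differed. The counts are therefore a description, and no p-value of level is given below for a form that was at 0 in 1 genotype. Skin was sequenced in bulk, so fewer cells of a type and less RNA per cell cannot be told apart. When 1 library was left out, the filter still required at least 1 FPKM in at least 3 libraries. The 31 forms that reached it in 1 genotype alone could then be tested only without a library of the other genotype. The directions of the following counts are thus largely set by the filter. Without a knockout library the count was 26 for replicate 1 (3 higher, 23 lower), 19 for replicate 2 (2 and 17) and 23 for replicate 3 (3 and 20). Without a wild-type library it was 11 for replicate 1 (10 and 1), 13 for replicate 2 (13 and 0) and 10 for replicate 3 (10 and 0).

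Of the 41, 13 were not listed in any wild-type library and 15 in no knockout library. Over all 3548, 36 (1.01%) were listed in the 3 knockouts and no wild type, against 0.748% of all first exons, and 34 (0.958%) in the 3 wild types and no knockout, against 0.798%. The most abundant of them spans 92558 to 93215 of an unplaced scaffold on the plus strand, at 183, 234 and 268 FPKM in wild type and not listed in the knockouts. The whole cluster, with the form to 93362 at 65.3, 88.7 and 191 FPKM, was listed in wild type alone. On chromosome 13 the plus-strand first exon from 39474825 to 39475048 reached 88.1, 102 and 129 FPKM in knockout alone, and the overlapping forms from 39474837, listed in wild type alone, had at most 2.70 FPKM. In both loci nearly all of the first-exon FPKM was in libraries of 1 genotype.

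A chromosome 3 cluster holds 2 forms that end 17 bases apart. The 59-base first exon from 15890351 to 15890409, plus strand, had 44.3, 26.8 and 30.6 FPKM in wild type, and no knockout listed it. The form with the same outer boundary that ends at 15890426 had 92.5, 98.0 and 123 FPKM in knockout, against 25.9, 54.0 and 0 in wild type (limma adjusted p = 0.373). As a share of the locus the 59-base form did not pass (adjusted p = 0.299). On chromosome 8 the form from 32580080 to 32580670 was at 49.6, 60.5 and 69.9 FPKM in knockout alone. Its 449-base partner, with the same outer boundary and an inner boundary at 32580528, had 854, 1075 and 654 FPKM in wild type and 0, 439.7 and 209.8 FPKM in knockout (limma adjusted p of the partner's level 0.433).

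The 10 of the 41 that every library listed, 5 higher and 5 lower, are free of missing values. Not all are free of the filter, since the form from 1344546 to 1344748 reached 1 FPKM in knockout alone. It was tested in 3 of the fits without 1 library, so the 10 called and tested in all 6 are another set. On chromosome 2 the plus-strand first exon from 115119359 to 115119526 rose from 1.16, 1.15 and 2.30 FPKM in wild type to 16.7, 16.9 and 15.4 FPKM in knockout (limma, difference of log2(FPKM + 1) 2.80 ± 0.22 SE, adjusted p = 0.00245). Of the 10 overlapping first exons called and tested in all 6 fits without 1 library, it alone passed in each, at an adjusted p of at most 0.0303. Its overlapping form, 10 bases shorter at the inner boundary, was listed in wild-type replicate 3 alone, at 0.557 FPKM. On chromosome 13 the plus-strand first exon from 139870575 to 139870731 rose from 3.29, 2.35 and 2.79 to 11.6, 12.5 and 11.2 FPKM (difference of log2(FPKM + 1) 1.75 ± 0.16 SE, limma adjusted p = 0.00550; 0.0539 without wild-type replicate 3). Its long form to 139872800 lay between 0 and 1.41 FPKM in all libraries. The other rises were at 73580 to 73907 (15.9, 9.92 and 19.3 FPKM in wild type against 71.6, 90.7 and 92.1), at 1344546 to 1344748 (0.605, 0.784 and 0.873 FPKM against 5.52, 3.88 and 6.44) and at the 449-base form from 376384 described above, all on unplaced scaffolds. They passed in 3 of 6, 0 of 3 and 0 of 6 such fits.

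Among the falls, 2 were on chromosome 12. The minus-strand first exon from 116945271 to 116945537 fell from 9.43, 8.92 and 7.77 FPKM in wild type to 2.10, 2.15 and 1.44 FPKM in knockout (limma, difference of log2(FPKM + 1) -1.75 ± 0.18 SE, adjusted p = 0.00806). The long form that overlaps it, from 116945128 to 116945539, was at 16.4, 16.5 and 18.1 FPKM in wild type and 20.4, 15.4 and 10.7 in knockout (adjusted p = 0.764), with an outer boundary 2 bases away. The plus-strand first exon from 47300021 to 47300164 fell from 6.54, 9.53 and 8.42 to 1.74, 1.18 and 1.57 FPKM (adjusted p = 0.00927), while its overlapping form from 47299967 was at 0 to 2.05 FPKM. Each of these 2 passed in 3 of the 6 fits without 1 library, at a largest adjusted p of 0.0853 and 0.0815.

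A minus-strand first exon of 80 bases on chromosome 19, from 38528808 to 38528887, fell from 45.2, 50.4 and 48.6 FPKM in wild type to 14.3, 9.50 and 20.2 FPKM in knockout (limma, difference of log2(FPKM + 1) -1.71 ± 0.26 SE, adjusted p = 0.0374). The other first exon of the locus, from 38528878 to 38529154, overlaps its edge, with 24.1, 26.1 and 32.0 FPKM in wild type and 26.1, 38.2 and 35.8 in knockout (adjusted p = 0.572). The share of the 80-base form was 65.2%, 65.9% and 60.3% in wild type and 35.3%, 19.9% and 36.0% in the knockouts, with no overlap between the groups, but did not pass as a share (adjusted p = 0.370). Its level passed in 1 of the 6 fits without 1 library (adjusted p up to 0.183).

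The last falls were at a 31-base first exon on chromosome 13 from 126773636 to 126773666, from 12.1, 10.6 and 11.9 to 3.52, 3.33 and 3.86 FPKM (limma adjusted p = 0.00705), and at a 3938-base first exon on an unplaced scaffold from 1789731 to 1793668, from 9.52, 14.2 and 11.8 to 3.84, 3.13 and 3.69 FPKM (limma adjusted p = 0.0187). The first has an overlapping form 8 bases shorter, which had 2.21, 1.18 and 3.28 FPKM in wild type and was listed in knockout replicate 3 alone, at 0.637 FPKM (adjusted p = 0.169). The second belongs to a cluster of 7 long overlapping forms, of which the one from 1789347 to 1793668 led in 6 of 6 libraries at 13.5 to 30.7 FPKM (adjusted p = 0.713). They passed in 2 and 0 of the 6 fits without 1 library.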

How the data were processed

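RNA of 3 Prss53-/- and 3 wild-type skin samples was extracted with Trizol and made into libraries with a NEBNext Ultra RNA kit, per the labels' protocols. Per the submitters' processing notes, bcl2fastq 2.17.1.14 and cutadapt were used. The sources used here name no genome build, aligner, assembler or event caller, so coordinates carry no build and no sequence is shown. The authors deposited FPKM per transcript event, per the file headers, and no counts. The depth is therefore unknown, and no intervals from counts can be had. No deposited row is at 0, and a missing row was entered as 0. Nothing states that libraries of a group are separate animals, so p-values measure only how far these samples spread, and part of that may be technical.

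First exons were keyed by event and locus. Clusters are sets linked by overlaps of at least 1 base. Shares were taken of the locus or of the cluster where it had at least 1 FPKM in every library, and levels as log2(FPKM + 1) where at least 3 libraries reached 1 FPKM. Each was tested with limma 3.58.1 in R 4.3.3 (two-sided, moderated with a mean-variance trend, with a single genotype term and Benjamini-Hochberg adjustment at 0.05). On simulated data the test of level kept false calls near the nominal rate, while the tests of shares exceeded it. The simulation drew normal noise around each mean and entered no missing rows. Its rates therefore do not cover forms that a whole genotype did not list. A difference of log2(FPKM + 1) understates the fold change of low levels. Where a locus has 2 first exons, their shares are complementary. The rule for named regions took every overlapping first exon past the threshold of share (24 at most, otherwise 8 per kind), 3 per kind past that within the cluster, and the 3 clusters per kind with the highest FPKM whose second form had a mean share of 10% or more. Since none passed for share, the first exons called without the trend or by level, the pairs 4 bases apart and the steady splits were chosen after their values were seen. The regions and tests were chosen with earlier results of these data known. The RefSeq gene table supplied (38822 genes) holds no Ensembl IDs, so none could be matched. Genes are therefore given by position, and Prss53 and skin markers were not analysed here.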

Additional observations from a re-analysis of the deposited data

How the results depend on the processing

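The count of overlapping first exons past the threshold of share, 0 in the main test, was 2 with a minimum of 5 FPKM, 5 with no minimum, 2 on the arcsine square root scale, 1 when adjusted over first and last exons together, and 14 without the mean-variance trend, which was chosen after seeing the data. It lay between 0 and 2 when 1 library was left out. Within clusters the count of 0 became 1 for forms listed in all 6 libraries, 1 with a minimum of 5 FPKM, 8 with no minimum, 4 on the arcsine scale and 6 without the trend, and lay between 0 and 3 with 1 library left out. The count for level, 41, was 9 among forms listed in all 6 libraries and between 10 and 26 with 1 library left out. For level the filter was applied again with each library left out, so 31 of the 41 could be tested in only 3 of those 6 fits. The cause of the changes was not otherwise tested. The remaining alternatives (library weights, another pseudocount, no filter on levels, a larger required overlap, merged outer boundaries) kept each count within 1.5 times. Merging gave the same elements, so it could change no count. For shares of the locus the larger overlap only shortened the list without a new fit, so a count of 0 could not rise. For single named regions, 118 alternatives of a level lost the call and 250 did not, 19 alternatives of a share gained one and 479 did not, and 0 changed the sign of a call.

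Libraries of the 2 genotypes share replicate numbers, but deviations of same-numbered libraries from their group means correlated at 0.0002, 0.0519 and 0.0244, and not every library correlated best with its own number. With the replicate number as a block, 0 shares, 0 shares within clusters and 17 levels passed. FPKM of overlapping forms are estimates that divide shared fragments, and no read counts are at hand to give their precision.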

Other observations

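Overlapping first exons were more often on the plus strand than other first exons. They were on the plus strand in 2301 of 3548 cases (64.9%), against 59.4% of first exons in the same kind of locus that overlap no other and 55.4% of those that are the single first exon of their locus. Their inner boundaries were farther apart there, with a median of 423 bases over 1653 pairs, against 200 bases over 867 pairs on the minus strand. The median length of the long form was 907 bases on the plus and 618 bases on the minus strand. Pairs 4 bases apart did not share this excess, with 20 on the plus and 29 on the minus strand. Unplaced scaffolds held 1254 of the 3548, 20.5% of their first exons, and chromosome 19 held 210, 20.3% of its own. The shares were 9.70% on chromosome 15, 9.87% on chromosome 18 and 9.96% on chromosome X. These are counts with no test, since first exons of a locus share transcripts and libraries.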
